A study of Homo sapiens with 6 samples.

Results

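The 38 genes described here are the transcription factor ATF4, its partner factors and the genes that ATF4 is known to switch on in the integrated stress response. They were taken from a list of symbols that covered stress factors and effectors, amino acid synthesis and transport, one-carbon enzymes, and a few secreted and surface proteins. All 38 were found among the 60708 gene identifiers of the series, each on a single row, and all 38 passed the filter on low counts.

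The data were 6 total RNA sequencing libraries of U2OS, a human osteosarcoma cell line. In 3 libraries wild-type cells had received the solvent DMSO, and in 3 they had received 25 µM of PDD00017273, an inhibitor of the poly(ADP-ribose) glycohydrolase PARG, with both treatments lasting 4 days. PARG cuts chains of poly(ADP-ribose) from proteins, and the series was named for its part in the turnover of the hydrolase TARG1. The labels gave no time point other than 4 days and no other dose, and the 3 libraries of a group were described as biological triplicates of this single cell line.

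In the integrated stress response, kinases that sense misfolded protein, amino acid shortage, double-stranded RNA or mitochondrial trouble phosphorylate the translation factor eIF2. General translation then slows, while the ATF4 mRNA is translated better because of short reading frames ahead of its coding sequence, so the amount of ATF4 protein need not follow that of its mRNA. ATF4 pairs with other bZIP proteins and switches on genes for amino acid synthesis, uptake and tRNA charging. With prolonged stress it also switches on CHOP, the product of DDIT3, and feedback genes such as PPP1R15A and TRIB3.

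The libraries held 60286931 to 80605145 counts, and edgeR's quasi-likelihood test was run on 20409 genes, with p-values adjusted by the Benjamini-Hochberg method over all of them and a threshold of 0.05. Levels are given as CPM, the usual depth-scaled count, after trimmed-mean scaling, whose factors lay between 0.995 and 1.007. Of the genes tested, 2700 (13.2%) were higher and 2251 (11.0%) were lower with the inhibitor, which is abbreviated PARGi. With upper-quartile scaling these counts were 2003 and 2944, so that 40.5% of the calls were higher in place of 54.5%. Of the osteoblast and mesenchymal markers, COL1A1, VIM and SPARC were abundant in both groups, with COL1A1 at means of 4374 ± 268 CPM (DMSO) and 4411 ± 53 CPM (PARGi; SD over 3 libraries), while COL1A2, ALPL and MSX2 were low, with DMSO means of 13, 4.68 and 6.39 CPM, and TWIST1 was close to 0. Of the 7 such markers tested among 8, RUNX2, SPARC and COL1A2 were lower and ALPL was higher in PARGi, and the summed level of the list ran from 8324 to 8911 CPM in DMSO and from 8434 to 8475 CPM in PARGi. Epithelial markers summed to 27.4 to 28.6 CPM in DMSO and 18.4 to 21.7 CPM in PARGi, most of it KRT14, with CDH1 higher and KRT14 lower among 4 tested of 5. Blood markers summed to 1.25 to 1.47 CPM in DMSO and 1.29 to 1.43 CPM in PARGi, most of it PTPRC, with CD3E at or near 0. Endothelial markers summed to 2.85 to 3.67 CPM in DMSO and 3.17 to 4.07 CPM in PARGi. The part of these markers in the results below was not tested. In RNA from whole cultures, fewer cells of a kind and less RNA per cell cannot be told apart. The p-values set each difference between the groups against the spread among replicate libraries of this single cell line.

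Most genes for making amino acids (6 of 8, with ASNS lower) and for importing them (4 of 6, with SLC38A2 lower) and all 4 mitochondrial one-carbon enzymes rose by modest amounts in PARGi, while the mRNAs of ATF4 and of most stress factors and feedback genes did not pass the test or fell. Of the 38 genes, 20 rose (52.6%, against 13.2% of all genes tested) and 5 fell (13.2%, against 11.0%). The remaining 13 did not pass. The genes were chosen with earlier results of these data known, so these shares do not come from a blind choice. None of the 38 changed by as much as 1.5-fold in edgeR's fit. The genes that rose were ATF3, JDP2, SESN2, EIF4EBP1, PSAT1, PHGDH, PSPH, ALDH18A1, PYCR1, GPT2, SHMT2, MTHFD2, MTHFD1L, ALDH1L2, SLC7A5, SLC3A2, SLC1A4, SLC1A5, VLDLR and VEGFA. The genes that fell were DDIT3, DDIT4, KLHL24, ASNS and SLC38A2. KLHL24 and DDIT4 kept their calls in every alternative analysis, while DDIT3, ASNS and SLC38A2 did not.

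**Figure D1:**
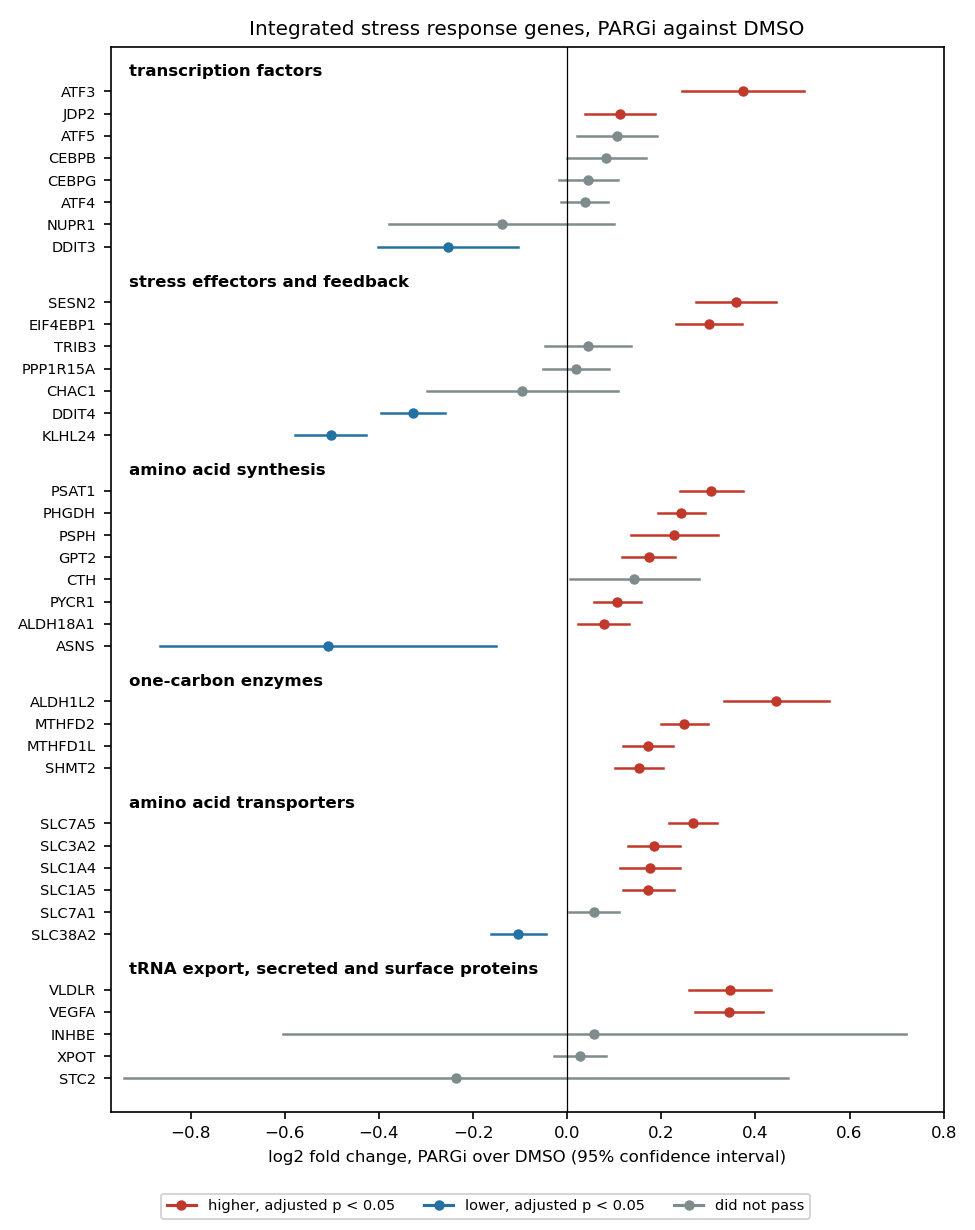
Log2 fold change of each of the 38 genes in PARGi over DMSO on the horizontal axis, grouped by role, with points for edgeR estimates, bars for 95% confidence intervals and colour for the call. Of the 38 estimates, 30 lie to the right of 0 and 8 to the left. All 4 one-carbon enzymes and 6 of 8 amino acid synthesis genes were called higher. DDIT3, DDIT4, KLHL24, ASNS and SLC38A2 were called lower.

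Because well-counted genes are called more often, the same count was made among genes whose mean level reached 10 CPM. There 19 of 30 stress response genes rose (63.3%) against 22.1% of all 10143 such genes, and 3 fell (10.0% against 13.6%). The median log2 fold change of the 38 genes was 0.11, beside -0.0070 over all genes tested, and 30 of the 38 estimates were above 0. The summed level of the 38 genes went from 3974 ± 39.1 CPM with DMSO to 4344 ± 18.6 CPM with the inhibitor (SD over 3 libraries), a difference of 9.32%. For 23 genes all 3 PARGi libraries were above all 3 DMSO libraries, an order seen in 19.8% of all genes tested, and for 6 they were all below, an order seen in 18.2%. The other 9 genes, whose groups overlapped, were all among the 13 that did not pass.

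The 3 PARGi libraries were not equal in this respect. The median log2 ratio of the 38 genes to the DMSO mean was 0.15 in PARGi replicate 1, 0.094 in replicate 2 and 0.16 in replicate 3. The DMSO libraries lay between -0.0059 and 0.015, near 0 because that mean is their own. The median of PARGi replicate 2 was the lowest of the 3 and still above that of every DMSO library. Each of the 20 genes that rose was above the DMSO mean in each PARGi library. Those genes were called from the same libraries, so this order is no separate evidence.

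ATF4 and its partners bind composite C/EBP-ATF sites, whose core is written here as TGATGNAA. The core was searched on both strands of RefSeq promoter windows, from 250 bases before to 50 after each gene start, on GRCh38.p14. A window was found for 29 of the 38 genes. No window was matched for NUPR1, EIF4EBP1, PSPH, PYCR1, GPT2, SHMT2, ALDH1L2, VEGFA and INHBE. The core was present for 10 of the 29 genes (34.5%), compared with 4.46% of 27305 genes with a window and 3.62% of all 35116 windows. These are letters in a window and say nothing of occupancy, and the list was built from genes reported as ATF4 targets. The 7 stretches below are from RefSeq. They are shown because the same 8 letters, TGATGCAA or their reverse complement, stood ahead of genes that rose and others that did not pass. ASNS is shown because it fell, while its site is a classic amino acid response element. That fall is uncertain, as ASNS had a DMSO mean of 1.33 CPM and lost its call in 6 of 13 alternative analyses. Each stretch is read 5′ to 3′ on the strand of its gene, with the core in capitals.
JDP2: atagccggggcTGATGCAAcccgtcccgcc
MTHFD1L: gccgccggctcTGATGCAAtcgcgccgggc
SLC1A4: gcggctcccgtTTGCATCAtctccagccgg
SLC1A5: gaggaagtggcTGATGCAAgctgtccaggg
CEBPG: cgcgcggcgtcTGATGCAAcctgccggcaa
CHAC1: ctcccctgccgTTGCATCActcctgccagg
ASNS: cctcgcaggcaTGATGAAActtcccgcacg

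The JDP2 stretch lies at chr14:75427995-75428024 on the plus strand, 16 bases before a gene start. Those of MTHFD1L (chr6:150866346-150866375, plus strand) and SLC1A4 (chr2:64989381-64989410, plus strand) lie 129 and 7 bases before a start, and that of MTHFD1L also falls after another annotated start of the gene. The SLC1A5 stretch (chr19:46784893-46784922, minus strand) lies 97 bases before a start. The CEBPG stretch (chr19:33374060-33374089, plus strand) lies 42 bases before a start and that of CHAC1 (chr15:40953251-40953280, plus strand) 209 bases before. The ASNS stretch (chr7:97872458-97872487, minus strand) lies 68 bases before a start. Among the genes with a window, the core was present for 6 of 13 that rose, 1 of 5 that fell and 3 of 11 that did not pass. The other 3 matches were ATF3 and SLC3A2, which rose, and SLC7A1, which did not pass. With so few genes in each class the shares were not compared by a test.

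The transcription factors were mixed. Of 8, ATF3 and JDP2 rose (25%) and DDIT3 fell (12.5%), and the median log2 fold change was 0.064. These shares were near the 22.1% and 13.6% among all genes averaging 10 CPM or more. Over all genes tested, 13.2% rose and 11.0% fell. ATF4, the central activator (chr22:39519695-39522685, plus strand, GRCh38), was measured at 292, 293 and 290.4 CPM in the DMSO libraries and at 296, 303 and 299.7 CPM in the PARGi libraries. The PARGi libraries were all higher, by a narrow margin. The estimated change was 2.6%, with a 95% interval from -0.829% to 6.14%, and it did not pass edgeR's test (Benjamini-Hochberg adjusted p = 0.285). A rise of ATF4 mRNA beyond about 6.14% therefore lay outside the interval. Per kilobase of exon, ATF4 mRNA was at 116 CPM per kb in DMSO, behind only SLC7A5 at 120.3 CPM per kb among the 38 genes.

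ATF3, a bZIP factor induced by many stresses, was at 7.42, 7.33 and 7.66 CPM with DMSO and at 10.3, 9.62 and 9.20 CPM in PARGi. Its groups did not overlap, and the rise was 29.5%, a log2 fold change of 0.37 ± 0.063 (SE) with an edgeR adjusted p of 9.1e-05. DDIT3, which encodes the death-promoting factor CHOP, was at 6.70, 6.80 and 6.87 CPM with DMSO and at 5.90, 5.98 and 5.25 CPM in PARGi. Here all PARGi libraries were lower, with replicate 3 the lowest, and DDIT3 fell by 0.25 on the log2 scale (SE 0.072, edgeR adjusted p = 0.0113). Without PARGi replicate 3 the adjusted p for DDIT3 was 0.095 and the log2 fold change -0.19. DDIT3 shares 105 of its 1307 exonic bases with a read-through gene model on the same strand that had 0 counts, so part of its reads may have been left out.

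ATF5, a close relative of ATF4 whose mRNA also carries upstream reading frames, was at 38.2, 35.7 and 39.1 CPM with DMSO and at 42.3, 38.1 and 41.4 CPM in PARGi. The groups overlapped through PARGi replicate 2, and ATF5 missed the threshold at an edgeR adjusted p of 0.062. It passed without DMSO replicate 3 (edgeR adjusted p = 0.0198) and without PARGi replicate 2 (0.0166), while without DMSO replicate 2 its log2 fold change was 0.070 (0.241) and without PARGi replicate 1 it was 0.077 (0.267), against 0.11 with all libraries. JDP2, a bZIP repressor of AP-1 sites, rose by 8.11% (edgeR adjusted p = 0.0248), and it lost that call when either PARGi replicate 1 or 3 or DMSO replicate 1 or 2 was left out (adjusted p 0.0637 to 0.126). CEBPB and CEBPG, dimer partners of ATF4, had log2 fold changes of 0.083 and 0.045, and NUPR1, a small stress-induced chromatin protein, one of -0.14. CEBPB overlapped because DMSO replicate 3, at 90.3 CPM, stood above the other DMSO libraries at 79.3 and 79.2 CPM. Without that library CEBPB passed, with a log2 fold change of 0.15 and an edgeR adjusted p of 0.00104. Without DMSO replicate 1 or 2 or PARGi replicate 1 its log2 fold change was 0.050 to 0.051 (adjusted p 0.393 to 0.504).

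**Figure D2:**
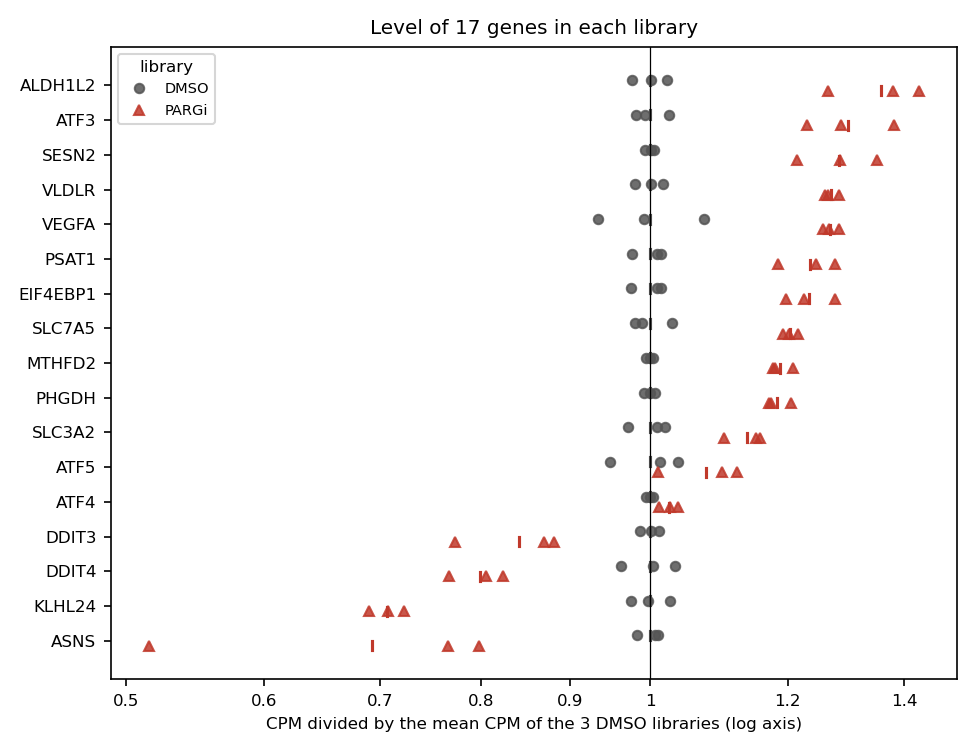
Level of 17 of the genes in each library divided by the mean of the 3 DMSO libraries (log axis), with circles for DMSO, triangles for PARGi and a tick for each group mean. DMSO and PARGi libraries are apart for 16 of the 17 genes, ATF4 by a narrow margin, and overlap for ATF5.

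Stress effectors and feedback genes split in both directions, with 2 of 7 higher (28.6%) and 2 lower (28.6%), beside 22.1% and 13.6% of all genes averaging 10 CPM or more, a median of 0.018, and a summed level that went from 235 ± 3.15 CPM to 227 ± 5.20 CPM. SESN2, a leucine-binding inhibitor of mTORC1 signalling, was at 24.1, 23.9 and 24.2 CPM with DMSO and at 30.9, 32.5 and 29.2 CPM in PARGi. EIF4EBP1, which holds back cap-dependent translation when mTORC1 is inactive, was at 38.9, 37.4 and 38.7 CPM with DMSO and at 49.0, 45.9 and 47.0 CPM in PARGi. Both were higher in every PARGi library, SESN2 by 28.3% (edgeR adjusted p = 5.15e-07) and EIF4EBP1 by 23.3% (3.91e-07).

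DDIT4, which encodes REDD1, another inhibitor of mTORC1 signalling, went the other way. It was at 73.6, 68.5 and 71.5 CPM with DMSO and at 58.6, 57.4 and 54.6 CPM in PARGi, and fell by 0.33 on the log2 scale (SE 0.033, edgeR adjusted p = 6.63e-08). KLHL24 (chr3:183635568-183684477, plus strand), a substrate adaptor of a ubiquitin ligase, had the smallest p-value of the 38 genes. It was at 38.1, 37.0 and 36.2 CPM with DMSO and at 26.8, 25.6 and 26.2 CPM in PARGi. The groups were far apart compared with their spread, and KLHL24 fell by 0.50 on the log2 scale (SE 0.037, edgeR adjusted p = 3.25e-10). Thus 3 genes encoding inhibitors of mTORC1 signalling or of its translation output did not move together, since SESN2 and EIF4EBP1 rose and DDIT4 fell.

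The feedback genes did not pass. TRIB3, a pseudokinase that restrains ATF4 and CHOP, had a log2 fold change of 0.045, with a percent change of 3.16% (95% interval -3.19% to 9.93%). PPP1R15A, the GADD34 subunit that directs eIF2 dephosphorylation, was at 1.27% (-3.51% to 6.3%), and its sign turned with upper-quartile scaling. CHAC1, which degrades glutathione and is a sensitive reporter of this response in many cell types, was at -6.4% (-18.7% to 7.77%), and its log2 fold change of -0.095 became -0.14 when DMSO replicate 2 was left out and -0.037 when either DMSO replicate 3 or PARGi replicate 2 was. In all 3 the DMSO and PARGi libraries overlapped.

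Amino acid synthesis genes were mostly higher, with 6 of 8 called higher (75%) and 1 lower (12.5%), and a median log2 fold change of 0.16. Of all genes averaging 10 CPM or more, 22.1% rose and 13.6% fell. The summed level of the synthesis genes went from 792 ± 6.15 to 894 ± 8.76 CPM, a difference of 12.8%. The 3 enzymes of serine synthesis from glycolytic 3-phosphoglycerate all rose. PHGDH, which catalyses the first step, was at 289.6, 292 and 287 CPM with DMSO and at 349, 339.9 and 339 CPM in PARGi, a rise of 18.3% (edgeR adjusted p = 5.11e-08). PSAT1, the transaminase that follows, was at 49.9, 50.1 and 48.3 CPM with DMSO and at 61.6, 58.5 and 63.1 CPM in PARGi, a rise of 23.7% (1.59e-07). For both genes the lowest PARGi library was well above the highest DMSO library. PSPH, the phosphatase of the last step, rose by 17.1% (edgeR adjusted p = 0.000477), so that the estimates of the 3 enzymes lay between 17.1% and 23.7%.

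Of the proline synthesis enzymes, PYCR1, which makes proline in mitochondria, rose by 7.63% (edgeR adjusted p = 0.00213), and ALDH18A1, which makes its precursor, rose by 5.51% (adjusted p = 0.0342). The ALDH18A1 call was lost when DMSO replicate 1 or 3 or PARGi replicate 1 or 2 was left out, with adjusted p from 0.067 to 0.157. PYCR1 shares 408 of its 2886 exonic bases with a neighbour on the same strand that had 2 counts in all. GPT2, the mitochondrial alanine transaminase, rose by 12.7%. CTH, which makes cysteine from cystathionine, was at 10.4% (95% interval 0.396% to 21.4%) and did not pass (edgeR adjusted p = 0.125), although its PARGi libraries were all above its DMSO libraries.

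ASNS, asparagine synthetase and a standard readout of ATF4 activity, stood apart from the other synthesis genes in both level and direction. It was at 1.34, 1.33 and 1.30 CPM with DMSO and at 0.684, 1.01 and 1.06 CPM in PARGi. The groups did not overlap, and PARGi replicate 1 was the lowest. ASNS fell by 0.51 on the log2 scale (SE 0.172, edgeR adjusted p = 0.0339), and without PARGi replicate 1 the log2 fold change was -0.35 with an adjusted p of 0.154. The call was also lost when any DMSO library or PARGi replicate 2 was left out, and in DESeq2 (adjusted p 0.05003 to 0.0985 in these 5 cases). Of the 4455 exonic bases of ASNS, 1985 are shared with another gene model on the same strand, AC079781.5, and the pseudogene ASNSP1 was counted at 1.66 CPM with DMSO and 1.45 CPM with the inhibitor. How reads in shared or near-identical sequence were assigned is not given in the sources used here, so the level and the change of ASNS are uncertain.

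Mitochondrial one-carbon metabolism supplies NADPH, and SHMT2, MTHFD2 and MTHFD1L turn serine into formate for purine synthesis. With ALDH1L2 they make up the 4 mitochondrial one-carbon enzymes listed here. All 4 rose, against 22.1% of all genes averaging 10 CPM or more, with a median log2 fold change of 0.21. Their summed level went from 440 ± 2.11 CPM to 509 ± 5.62 CPM, a difference of 15.5%. MTHFD2, a dehydrogenase and cyclohydrolase, was at 196, 195 and 194 CPM with DMSO and at 229.9, 229.5 and 236 CPM in PARGi. ALDH1L2, which oxidises the one-carbon unit to carbon dioxide, was at 10.6, 11.1 and 10.9 CPM with DMSO and at 13.7, 15 and 15.5 CPM in PARGi. Both pairs of groups were well apart, with a rise of 18.9% for MTHFD2 (edgeR adjusted p = 4.22e-08) and of 36.1% for ALDH1L2 (1.24e-06), the largest estimated rise of the 38 genes. SHMT2, the entry enzyme that splits serine, and MTHFD1L, which releases formate, rose by 11.1% and 12.7% (edgeR adjusted p = 5.84e-05 and 2.54e-05).

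Among amino acid transporters 4 of 6 rose (66.7%) and 1 fell (16.7%), with a median of 0.17. The shares among all genes averaging 10 CPM or more were 22.1% and 13.6%. SLC7A5 (chr16:87830023-87869488, minus strand), the LAT1 carrier of leucine and other large neutral amino acids, was at 559.8, 565 and 587 CPM with DMSO and at 681, 686 and 694 CPM in PARGi. Its partner chain SLC3A2, also called CD98hc or 4F2hc, was at 261, 251 and 263 CPM with DMSO and at 299, 285 and 297 CPM in PARGi. In both genes every PARGi library was above every DMSO library. SLC7A5 rose by 20.4% (edgeR adjusted p = 1.39e-08) and SLC3A2 by 13.7% (1.28e-05). SLC1A4 and SLC1A5, carriers of alanine, serine, cysteine and glutamine, rose by 13% and 12.7%.

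SLC38A2, the SNAT2 carrier that is induced when amino acids run short, fell by 0.10 on the log2 scale (edgeR adjusted p = 0.00896), from 514 ± 10.2 CPM to 478 ± 21.2 CPM (SD, n = 3). PARGi replicate 1, at 454 CPM, lay below the other PARGi libraries at 489 and 492 CPM. Without it the log2 fold change was -0.068 and the adjusted p 0.0973. SLC7A1, the CAT1 carrier of arginine and lysine, was at a change of 4.05% and did not pass (edgeR adjusted p = 0.112).

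Of the 5 genes for tRNA export and for secreted and surface proteins, VLDLR and VEGFA rose (40%). The share that rose was 13.2% over all genes tested and 22.1% over those averaging 10 CPM or more. VLDLR, a lipoprotein receptor induced by ATF4 under endoplasmic reticulum stress, was at 16.8, 17.5 and 17.2 CPM with DMSO and at 21.7, 21.8 and 22.1 CPM in PARGi. VEGFA, an angiogenic growth factor that also responds to hypoxia, was at 95, 89.4 and 103 CPM with DMSO and at 120.3, 121 and 123 CPM in PARGi. The VEGFA groups stayed apart although its DMSO libraries were spread more widely than its PARGi libraries. The rises were 27.1% for VLDLR (edgeR adjusted p = 1.12e-06) and 26.9% for VEGFA (8.85e-08). XPOT, the tRNA exporter, was at a change of 1.91% (95% interval -1.94% to 5.91%). STC2, a secreted glycoprotein, and INHBE, an activin subunit often used as a marker of this response, had DMSO means of 0.296 ± 0.106 and 0.421 ± 0.222 CPM (SD, n = 3). At these levels the 95% intervals were wide, from -47.9% to 38.5% for STC2 and from -34.2% to 64.7% for INHBE.

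**Figure D3:**
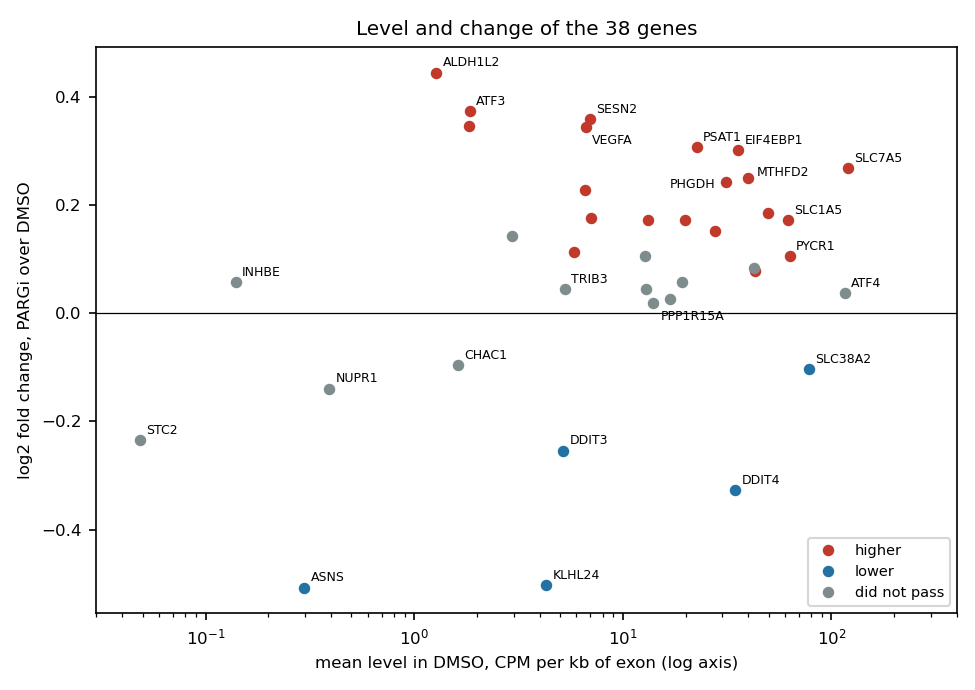
Log2 fold change in PARGi over DMSO (vertical axis) against the mean level in DMSO in CPM per kb of exon (horizontal log axis), with 1 point per gene coloured by call. The genes that rose span levels from ALDH1L2 at 1.28 to SLC7A5 at 120.3 CPM per kb, and ATF4, at 116 CPM per kb, lies near 0 change.

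Level did not separate the genes that rose from those that fell. Per kilobase of exon the 5 genes that fell ran from ASNS at 0.298 to SLC38A2 at 77.9 CPM per kb in DMSO, and the 20 that rose from ALDH1L2 at 1.28 to SLC7A5 at 120.3 CPM per kb, as the plot of change against level shows. The lowest levels belonged to STC2 at 0.0483 and INHBE at 0.14 CPM per kb, neither of which passed. In edgeR's fit 7 of the 20 genes that rose had log2 fold changes over 0.3, namely ATF3, SESN2, EIF4EBP1, PSAT1, ALDH1L2, VLDLR and VEGFA.

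Genes next to the 38 in the pathway were counted in the same way. These neighbouring lists, too, were chosen with earlier results of these data known. Of 17 genes for the upstream kinases, their cofactors and the eIF2 machinery, 4 rose (23.5%) and 1 fell (5.88%), with a median log2 fold change of 0.014. The share that rose was near the 22.1% among all genes averaging 10 CPM or more. EIF2S2, the beta subunit of eIF2, rose by 12.5% (edgeR adjusted p = 1.06e-05), EIF2B3, a subunit of its exchange factor, rose by 18.8% (4.39e-05), and IMPACT, an inhibitor of the kinase GCN2, fell by 0.17 on the log2 scale (0.0282). Of the 4 eIF2 kinases, EIF2AK2, the double-stranded RNA sensor PKR, was the 1 that passed, with a rise of 6.91%, and it was picked out after its value was seen. The log2 fold changes of the other kinases were 0.014 for EIF2AK1, 0.076 for EIF2AK3 and 0.062 for EIF2AK4.

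Cytosolic aminoacyl-tRNA synthetases load tRNAs, and their genes include many ATF4 targets. Of 12 such genes 9 rose (75%), against 22.1% of all genes averaging 10 CPM or more. All 12 estimates were above 0, with a median of 0.11. SARS1, for serine, rose by 14.2% (edgeR adjusted p = 3e-06) and YARS1, for tyrosine, by 13.8% (5.12e-06). The 3 that did not pass, CARS1, IARS1 and LARS1, had log2 fold changes of 0.043, 0.056 and 0.060.

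Of 22 other genes reported as targets of ATF4 or CHOP, 8 rose (36.4%) and 3 fell (13.6%), with a median of 0.035. Among all genes averaging 10 CPM or more, 22.1% rose and 13.6% fell. Over all genes tested, 13.2% rose and 11.0% fell. The list also holds genes below 10 CPM, and its share that fell was near both backgrounds. GDF15, a secreted stress cytokine, was at 2.00, 2.59 and 2.67 CPM with DMSO and at 5.87, 5.51 and 5.05 CPM in PARGi. Every PARGi library was above every DMSO library, and the log2 fold change of 1.16 ± 0.103 (SE, edgeR adjusted p = 9.01e-09) exceeded that of any of the 38 genes. TNFRSF10B, the death receptor DR5, rose by 24.0% (6.23e-09), while SQSTM1, an autophagy receptor, and SLC43A1, an amino acid carrier, fell by 0.12 and 0.22 on the log2 scale. GDF15 and TNFRSF10B are also known targets of p53. Of 17 p53 target genes tested among 18 listed, 16 rose (94.1%), against 22.1% of all genes averaging 10 CPM or more. All 17 estimates were above 0, with a median of 0.35. CDKN1A, the cell cycle inhibitor p21, rose from 116 ± 2.55 CPM to 195 ± 5.47 CPM (log2 fold change 0.74, edgeR adjusted p = 3.72e-15). FDXR, a mitochondrial reductase, had a log2 fold change of 0.52 (4.18e-12). Some of the 38 genes can be induced by p53 as well. The 38 genes, those that fell included, were not sorted by response to p53. The part of p53 in their values was not tested.

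The ATF6 and XBP1 arms of the unfolded protein response act beside the eIF2 branch. Of their 17 genes 10 rose (58.8%, against 22.1% of all genes averaging 10 CPM or more), with a median of 0.081. The 3 estimates below 0 reached no further than -0.0086. HERPUD1, a membrane protein of endoplasmic reticulum-associated degradation, rose by 29.1% (edgeR adjusted p = 8.42e-10) and MANF, a secreted chaperone cofactor, by 20.6% (2.01e-06). Of 16 other one-carbon, serine and glutamate genes tested among 18, 7 rose (43.8%) and 1 fell (6.25%), with a median of 0.072. Among all genes averaging 10 CPM or more the shares were 22.1% and 13.6%. OAT, which links ornithine to proline synthesis, rose by 22.1% (edgeR adjusted p = 1.15e-08) and GOT2, the mitochondrial aspartate transaminase, by 12.4% (2.54e-05).

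**Figure D4:**
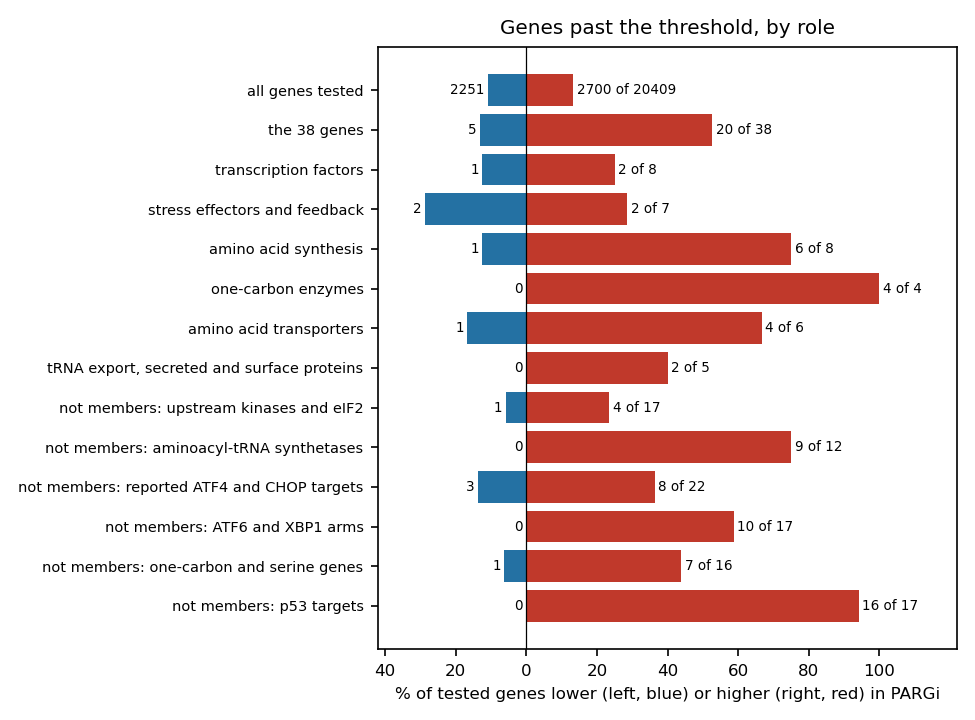
Percent of tested genes called higher (right, red) or lower (left, blue) in PARGi by edgeR, with the counts printed beside the bars, for all genes, the 38 genes, their 6 role groups and 6 neighbouring lists. The p53 targets (16 of 17), one-carbon enzymes (4 of 4), amino acid synthesis genes (6 of 8) and aminoacyl-tRNA synthetases (9 of 12) have the largest shares called higher.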

How the data were processed

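Whole-number counts per gene were deposited for each library, not normalised. Per the submitters' processing notes, the tools included cutadapt 1.18, STAR 2.7.3a, SAMtools 1.9, deepTools and DESeq2 (given as version 3.12), with hg38 as the build. The annotation release and the treatment of ambiguous reads are not given in the sources used here. Per the labels' protocols, the library kit keeps strand. The strand of the counts was checked on 235 genes lying inside the exons of an abundant opposite-strand gene, whose median was 0.659% of that gene's counts per base.

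Groups and replicate numbers came from the sample titles. Of 60708 identifiers, 60507 had a symbol, and 58440 were in GENCODE 29, which gave coordinates and exon lengths. The main test was the quasi-likelihood test of edgeR 4.0.16 (R 4.3.3; filterByExpr, TMM, treatment as the only term), two-sided, with Benjamini-Hochberg adjustment over all genes tested. Standard errors and 95% intervals came from the F statistics. The script was tested on simulated data. The 13 alternatives were DESeq2 1.42.0, limma-voom (limma 3.58.1), DESeq2 size factors, upper-quartile scaling, 2 other low-count filters, a replicate block, and leaving out each of the 6 libraries. With 3 libraries against 3, an exact two-sided permutation test of a single gene could not go below 0.1.

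Library values were given for ATF4, ATF5, DDIT3, ATF3, the 12 called genes with the smallest p and the 6 with the largest absolute log2 fold change, and, from each neighbouring list, up to 2 called genes in each direction with the smallest p. The genes and lists were chosen with earlier results of these data known. No pair of libraries agreed within sampling noise (chi-square per degree of freedom 2.19 to 5.61 within groups). Some values of single genes in the neighbouring and marker lists are not reported here.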

Additional observations from a re-analysis of the deposited data

How the results depend on the processing

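Of the 20 genes that rose, 18 kept their call and direction under all 13 alternatives, as did 2 of the 5 that fell (KLHL24 and DDIT4) and 8 of the 13 that did not pass. The number of genes that rose was 18 with upper-quartile scaling, 22 with no low-count filter and 20 with DESeq2, and 18 to 21 when a library was left out. The number that fell was 4 with DESeq2 and 3 to 4 when a library was left out, the 3 being without PARGi replicate 1, where ASNS and SLC38A2 were lost. The median log2 fold change of the 38 genes ran from 0.085 with upper-quartile scaling to 0.14 without PARGi replicate 2. Upper-quartile scaling ended the calls of JDP2 (0.088) and ALDH18A1 (0.053) and turned PPP1R15A to -0.0062. ATF5 and CEBPB passed with no low-count filter. With 1 library left out, STC2 ran from -0.57 to 0.11, turning without DMSO replicate 3, and INHBE from -0.28 to 0.44, turning without DMSO replicate 2 (-0.28), PARGi replicate 1 (-0.0059) or PARGi replicate 3 (-0.080). The cause of these shifts was not tested, and the fits with a library left out also rested on fewer libraries. The replicate numbers did not pair the samples: deviations of same-numbered libraries correlated at -0.0059, 0.016 and -0.0078, and not every library correlated best with its own number. With the replicate block 21 of the 38 genes rose, ATF5 among them (log2 fold change 0.11, edgeR adjusted p = 0.0335), and 5 fell, beside 2489 higher and 2064 lower among all genes tested. Leaving out a library put the counts over all genes at 2012 to 2694 higher and 1591 to 2154 lower. At the depth of these libraries, the direction of STC2 and INHBE, both below 1 CPM, depended on single libraries.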
